A study of Mus musculus with 12 samples.

Results

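The genes described here are 8 genes of cholesterol synthesis and its control, Hmgcs1, Idi1, Fdps, Fdft1, Sqle, Lss, Insig1 and Srebf2, chosen by symbol among the 32227 genes of a count table from mouse basophils. All 8 were in the table and all 8 had enough counts to be among the 15083 genes tested. Bulk RNA sequencing was done on basophil-lineage cells of wild-type C57BL/6J mice, with 3 libraries in each of 4 groups. From the bone marrow (BM) came CD34+ progenitors committed to basophils (BaPs, sorted as CD200R3+ cKit- CLEC12Ahi cells), CD34- CLEC12Ahi CD9lo pre-basophils, which the sample titles call immature basophils, and CD34- CLEC12Alo CD9hi mature basophils. The spleen gave mature basophils of the same phenotype. The mice were untreated as far as the labels say, their age and sex were not given, and each library was made from cells pooled from several animals in a single experiment, so that replicates differ as pools of animals do.

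Cholesterol is built from acetyl-CoA through mevalonate, isoprenoid units, squalene and lanosterol, and the isoprenoid intermediates also feed protein prenylation, dolichol and ubiquinone. When sterols in the endoplasmic reticulum are scarce, the escort protein SCAP carries the membrane-bound factor SREBP-2, the product of Srebf2, to the Golgi, where proteases free its DNA-binding part to switch on the synthesis enzymes. INSIG-1 and INSIG-2 hold SCAP back when sterols are plentiful, and Insig1 is itself a target of SREBP. Basophils are short-lived granulocytes that mature in the bone marrow before they enter the blood.

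Promoter sequence is shown for Hmgcs1 and Insig1, whose transcripts were lower in mature basophils, and for Lss and Srebf2, whose transcripts were not. The runs are RefSeq sequence on GRCm38.p6, all on the + strand, and end before the transcription start. Capitals mark the sterol regulatory core CACNCCAC, the NF-Y box CCAAT, the E-box CACGTG and the Sp1 box GGGCGG, each searched on both strands.
Hmgcs1, chr13:119690101-119690350: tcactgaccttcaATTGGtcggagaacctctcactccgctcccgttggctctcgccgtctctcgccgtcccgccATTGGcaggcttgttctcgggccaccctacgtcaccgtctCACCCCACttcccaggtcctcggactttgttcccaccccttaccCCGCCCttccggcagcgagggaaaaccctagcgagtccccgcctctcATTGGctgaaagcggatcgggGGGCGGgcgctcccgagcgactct
Insig1, chr5:28071162-28071362: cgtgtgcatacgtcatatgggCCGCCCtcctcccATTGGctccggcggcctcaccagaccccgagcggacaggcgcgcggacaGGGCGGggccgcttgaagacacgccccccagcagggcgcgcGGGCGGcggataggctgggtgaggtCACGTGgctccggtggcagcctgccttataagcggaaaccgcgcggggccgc
Lss, chr10:76531355-76531587: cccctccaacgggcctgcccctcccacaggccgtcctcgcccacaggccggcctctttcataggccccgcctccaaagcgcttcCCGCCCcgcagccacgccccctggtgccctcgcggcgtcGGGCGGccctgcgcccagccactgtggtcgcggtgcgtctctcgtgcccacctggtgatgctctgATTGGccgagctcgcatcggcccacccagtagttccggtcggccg
Srebf2, chr15:82147019-82147180: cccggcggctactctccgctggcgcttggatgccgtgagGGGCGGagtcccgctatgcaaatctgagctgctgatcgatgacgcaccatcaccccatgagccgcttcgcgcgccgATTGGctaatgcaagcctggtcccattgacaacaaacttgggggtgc

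In the Hmgcs1 run, the capitals CACCCCAC follow a t and so also spell the longer sterol element TCACNCCAC, at position -137 from the RefSeq start. That longer element was in 1.24% of the 32851 promoter windows searched, each 250 bases before to 50 after a start, and the core it contains was in 6.24%. The CCAAT box was in 37.4% of windows, the Sp1 box in 35.7% and the E-box in 7.15%. The Insig1 run carries an E-box at position -101, and its window has a sterol core at -9, after the run printed here. Neither the Lss nor the Srebf2 window had a sterol core, while each had a CCAAT box. Windows were found for 5 of the 8 genes, and the Idi1 window, not printed, had a CCAAT box and an Sp1 box and no sterol core. Idi1 too was lower in mature basophils. The sterol synthesis enzymes Mvk, Pmvk, Mvd, Cyp51, Msmo1, Nsdhl and Hsd17b7, and Erg28, a scaffold protein listed with them, had no sterol core. All of these are outside the 8 genes. Each was higher in every BaP and pre-basophil library than in every mature library. Among enzymes whose levels overlapped there, Acat2 had 2 cores, and Tm7sf2, Lbr, Ebp, Sc5d and Dhcr7 had none. Whether a core goes with a lower level was not tested. A match of letters is not a measured binding site, and the absence of a match covers these windows alone.

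Levels are given as CPM, the counts of a gene over a common library total, scaled with TMM factors (the trimmed mean of M values). A gene was called between 2 groups when its Benjamini-Hochberg adjusted p in edgeR's quasi-likelihood test was under 0.05. Library totals were 3596108 to 8151030 counts, and 3 counts, the most that a count of 0 allows, were worth 0.289 to 0.950 CPM. Every library had counts for all 8 basophil marker genes checked. BaP replicate 3 stood apart, with 26743 genes detected against 21911 to 24704 in the other libraries. Its basophil markers summed to 24871 CPM against 62309 to 67319 in BaP replicates 1 and 2, its erythroid markers to 2396 against 5.23 to 6.57, and its T and NK cell markers to 386 against 9.85 to 11.9. Values without this library are given beside the main comparisons with BaPs.

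**Figure D1:**
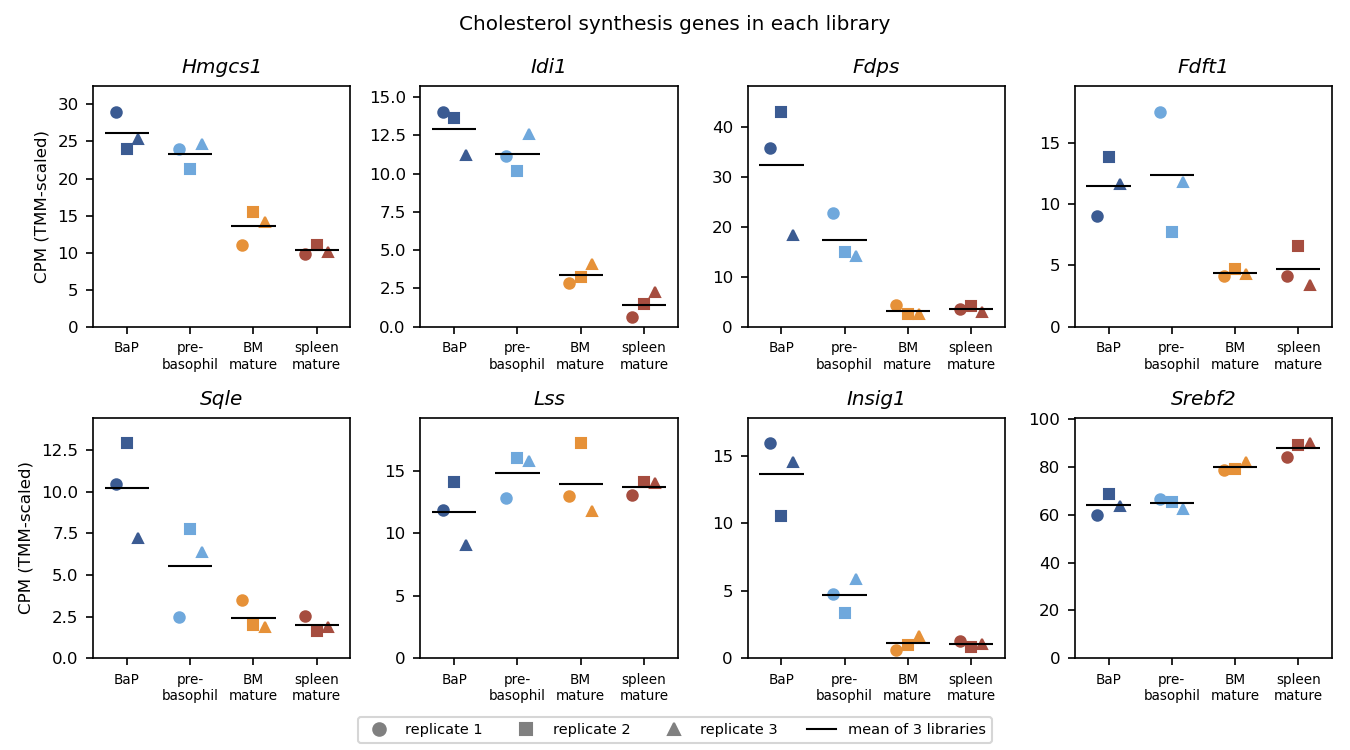
CPM of each of the 8 genes (y axis, from 0) in every library of the 4 groups (x axis), with a symbol for each replicate number and a bar at the mean of 3 libraries. Hmgcs1, Idi1, Fdps, Fdft1 and Insig1 were higher in all 6 BaP and pre-basophil libraries than in all 6 mature libraries, Srebf2 was lower in all 6, and Sqle and Lss overlapped.

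The question asked of these genes was at which stage of the lineage their transcripts differed. The main step lay between pre-basophils and BM mature basophils, where 6 of the 8 genes were higher in pre-basophils, Srebf2 was lower, and Lss was not called. Over all tested genes, 16.3% were called higher and 11% lower in the same comparison. The median log2 fold change of the 8 genes was 1.36, against -0.0046 for all tested genes. Between BaPs and pre-basophils Insig1 alone was called, where 2.8% of all tested genes were higher in BaPs and 4.29% lower. Between spleen and bone marrow mature basophils no gene of the 8 was called, where 3.16% of tested genes were higher in the spleen and 4.67% lower. By library, 5 of the 8 genes were above and 1 was below in all 6 BaP and pre-basophil libraries relative to all 6 mature libraries, against 16.7% and 11.6% of all tested genes. In the test of any difference among the 4 groups, 7 of the 8 genes were called, all but Lss, against 57.8% of all tested genes.

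Hmgcs1 encodes the cytosolic HMG-CoA synthase of the early mevalonate pathway, and lies at chr13:119690379-119708260 (GRCm38, as are all coordinates here). It was at 29.0, 23.9 and 25.3 CPM in BaP replicates 1 to 3 and at 23.9, 21.3 and 24.6 CPM in pre-basophils. In mature basophils it was at 11.1, 15.4 and 14.2 CPM in the bone marrow and at 9.87, 11 and 10.04 CPM in the spleen. Every BaP and pre-basophil library was thus above every mature library. The level was 1.71-fold higher in pre-basophils than in BM mature basophils (log2 fold change 0.77, SE 0.16, adjusted p = 0.0028). Spleen libraries were all below BM mature libraries, by 0.41 on the log2 scale, and this difference was not called (adjusted p = 0.146).

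Idi1 encodes the isomerase that interconverts the 5-carbon isoprenoid units, and lies at chr13:8885501-8892451. Its BaP libraries were at 14.0, 13.6 and 11.2 CPM and its pre-basophil libraries at 11.1, 10.2 and 12.6 CPM. Mature basophils were at 2.85, 3.24 and 4.10 CPM in the bone marrow and at 0.637, 1.48 and 2.25 CPM in the spleen. The step from pre-basophils to BM mature basophils was 3.27-fold (log2 fold change 1.71, SE 0.31, adjusted p = 0.0011). Idi1 had the largest spleen difference of the 8 genes, with all 3 spleen libraries below all 3 BM mature libraries (log2 fold change -1.21, SE 0.36, adjusted p = 0.0566). That difference was not called in the main quasi-likelihood fit. It was called by DESeq2 (adjusted p = 0.0466), with TCC's scheme rebuilt in edgeR and without the count filter. Counts there were low, at 4, 9 and 17 reads in the spleen libraries, and the exact binomial 95% interval of the lowest ran from 0.174 to 1.63 CPM, covering counting error only.

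Fdps encodes farnesyl diphosphate synthase, whose product stands at the branch to sterols, dolichol and prenyl groups, and lies on the minus strand at chr3:89093588-89101959. It was at 35.9, 43.2 and 18.4 CPM in BaPs and at 22.8, 15.02 and 14.3 CPM in pre-basophils. BM mature basophils had 4.43, 2.49 and 2.61 CPM and spleen mature basophils 3.50, 4.27 and 2.91 CPM. BaP replicate 3 sat within the pre-basophil range, while the other BaP libraries were above it. The step from pre-basophils to BM mature basophils was 5.56-fold, the largest of the 8 genes (log2 fold change 2.48, SE 0.37, adjusted p = 0.000261). Between BaPs and pre-basophils the log2 fold change was 0.90 (SE 0.29, adjusted p = 0.0815). With the replicate number as a block, which pairs the bone marrow libraries, it was 0.85 with an adjusted p of 0.0337. Without BaP replicate 3 it was 1.21 with an adjusted p of 0.0013. Fdps was called in both of these edgeR fits, and also with library size alone as the scaling and without the count filter. Fdps overlaps the protein-coding gene Gm43738 and the small nuclear RNA gene Gm22935, both on the same strand. Reads of these genes may not have been told apart.

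Fdft1 encodes squalene synthase, the committed enzyme of the sterol branch, and lies on the minus strand at chr14:63145150-63179578. It was at 9.03, 13.8 and 11.7 CPM in BaPs and at 17.5, 7.75 and 11.8 CPM in pre-basophils, so that these groups overlapped. It was at 4.12, 4.73 and 4.28 CPM in BM mature basophils and at 4.14, 6.57 and 3.44 CPM in the spleen. Pre-basophils were 2.79-fold above BM mature basophils (log2 fold change 1.48, SE 0.33, adjusted p = 0.0044). Fdft1 overlaps Ctsb, a protease gene on the opposite strand, and reads of the pair may not have been told apart.

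Sqle encodes squalene epoxidase, the enzyme that oxidises squalene, and lies at chr15:59315077-59331192. It was at 10.5, 12.9 and 7.23 CPM in BaPs and at 2.50, 7.75 and 6.36 CPM in pre-basophils. BM mature basophils had 3.48, 1.99 and 1.86 CPM and spleen mature basophils 2.55, 1.64 and 1.85 CPM. Pre-basophil replicate 1, with 9 reads, lay within the range of the mature libraries. The step to BM mature basophils was 2.36-fold (log2 fold change 1.24, SE 0.42, adjusted p = 0.0431). The call was lost when replicate 2 or 3 of the pre-basophils, or of the BM mature basophils, was left out (adjusted p from 0.125 to 0.162), with upper-quartile scaling (0.0514) and in limma-voom (0.0930), while the log2 fold change ran from 0.97 to 1.56 without any 1 library. BaPs were above spleen mature basophils without overlap (log2 fold change 2.31, SE 0.39, adjusted p = 0.000223).

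Lss encodes lanosterol synthase, which closes the sterol rings after squalene epoxidase, and lies at chr10:76531588-76557138. Among the 8 genes it was the enzyme that was not called in any pair of groups. BaP libraries were at 11.9, 14.1 and 9.06 CPM, pre-basophil libraries at 12.8, 16.0 and 15.7, BM mature libraries at 13.0, 17.2 and 11.7 and spleen libraries at 13.1, 14.1 and 14.0. All 4 groups overlapped. The log2 fold change of pre-basophils over BM mature basophils was 0.10 (SE 0.21, adjusted p = 0.770), and its SE was smaller than those of Idi1, Fdps, Fdft1 and Sqle. Lss overlaps the antisense gene 4930483K19Rik, whose reads may not have been told apart from its own.

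Insig1, the sterol-regulated anchor of SCAP, lies at chr5:28071363-28078662 and fell at each of the bone marrow steps. It was at 15.9, 10.6 and 14.5 CPM in BaPs and at 4.73, 3.39 and 5.88 CPM in pre-basophils. It was at 0.633, 0.996 and 1.68 CPM in BM mature basophils and at 1.27, 0.821 and 1.06 CPM in the spleen. The BaP, pre-basophil and mature ranges did not overlap. BaPs were 2.89-fold above pre-basophils (log2 fold change 1.53, SE 0.29, adjusted p = 0.0075). Without BaP replicate 3 the difference was 1.48 on the log2 scale (adjusted p = 0.0049). Pre-basophils were 3.98-fold above BM mature basophils (log2 fold change 1.99, SE 0.38, adjusted p = 0.0016), where only 2, 4 and 9 reads were counted in the BM mature libraries. The exact binomial 95% interval was 0.0767 to 2.29 CPM for the lowest of them and 0.767 to 3.18 CPM for the highest. The lowest pre-basophil library, at 3.39 CPM, had an interval of 1.85 to 5.69 CPM, which overlaps both.

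Srebf2, which encodes SREBP-2, lies at chr15:82147181-82205379 and ran the other way. BaP libraries were at 59.9, 68.5 and 63.8 CPM, pre-basophil libraries at 66.5, 65.4 and 62.5, BM mature libraries at 78.5, 79.2 and 82.1 and spleen libraries at 84.2, 89.3 and 89.8. All 6 mature libraries were above all 6 BaP and pre-basophil libraries. The difference was small, with pre-basophils below BM mature basophils by a log2 fold change of -0.30 (SE 0.10, adjusted p = 0.0394). The call was lost without any 1 of the 6 libraries (adjusted p from 0.0829 to 0.120), without the count filter (0.271), with TCC's scheme rebuilt in edgeR (0.248) and with library size alone as the scaling (log2 fold change -0.08, adjusted p = 0.660). The last scaling moved the median of all tested genes by 0.22, and relative to that median Srebf2 was at -0.30. The Srebf2 gene also contains the microRNA gene Mir33.

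**Figure D2:**
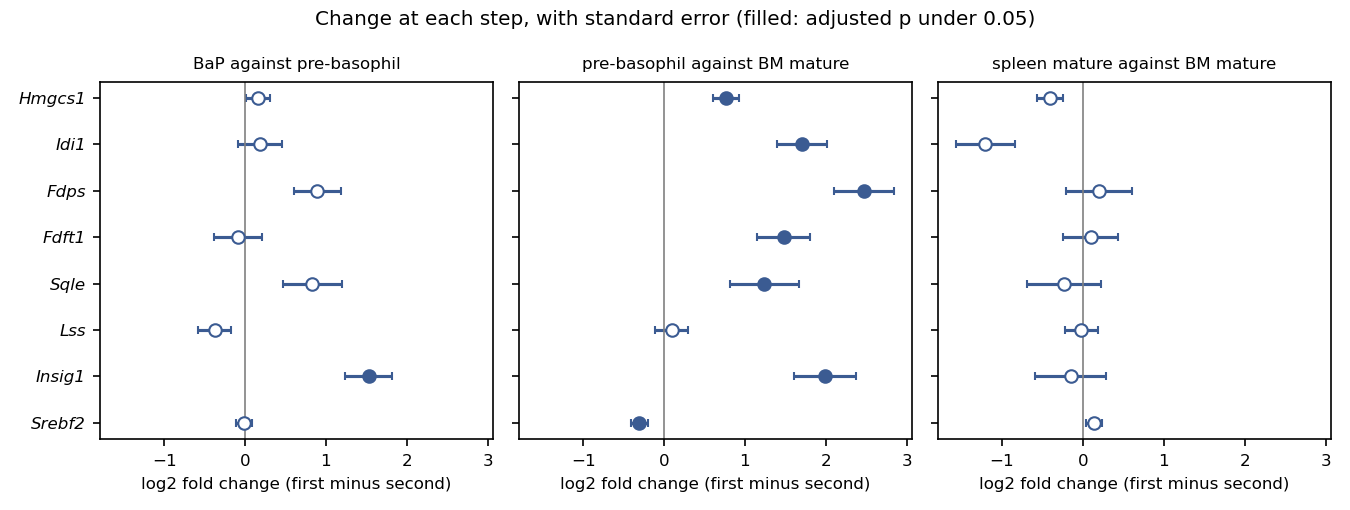
Log2 fold change of the 8 genes (y axis) in 3 comparisons, each the group named at the left of "against" minus the other (x axis), with bars of 1 SE and filled symbols for an adjusted p under 0.05. Insig1 alone is filled for BaPs against pre-basophils, 7 genes are filled for pre-basophils against BM mature basophils, and none is filled for spleen against BM mature basophils.

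Ordered by level, Hmgcs1, Idi1, Fdps, Fdft1 and Sqle had their only called gap between a high and a low pair of groups. A gap that was not called does not make levels equal. Sqle means were 10.2, 5.54, 2.45 and 2.01 CPM in BaPs, pre-basophils, BM and spleen mature basophils. The call of Sqle between pre-basophils and BM mature basophils was lost in several fits, as given above. BaPs and pre-basophils were adjacent at the top and were not called, with adjusted p from 0.0815 to 0.904. Fdps, however, was called with the replicate block (0.0337), without BaP replicate 3 (0.0013), with library size alone and without the count filter. Before adjustment, p in the main quasi-likelihood test was 0.0379 for Sqle and 0.0089 for Fdps, both higher in BaPs. Both mature groups were adjacent at the bottom, likewise not called, with adjusted p from 0.0566 to 0.903. The exception was Idi1, which was called by DESeq2, with TCC's scheme rebuilt in edgeR and without the count filter. Insig1 had 3 levels, with BaPs, pre-basophils and the mature groups apart and BM and spleen alike in mean (1.102 ± 0.53 and 1.05 ± 0.23 CPM, SD, n = 3). For Lss no neighbours in the order were called. For Srebf2 the order was spleen, BM mature, pre-basophil and BaP, with a called gap only between BM mature basophils and pre-basophils.

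Levels were compared between genes as mean CPM per kilobase of the longest coding transcript. In BaPs Fdps was highest, at 23.5 CPM per kilobase, followed by Srebf2 at 12.6 and Hmgcs1 at 7.53. In spleen mature basophils Srebf2 was highest, at 17.3 CPM per kilobase, with Hmgcs1 at 2.97, Lss at 2.94 and Fdps at 2.58. Insig1 moved from 5.07 to 0.390 CPM per kilobase between the same groups, the lowest level of the 8 genes in the spleen.

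Between the ends of the series, BaPs against spleen mature basophils, 6 genes (Hmgcs1, Idi1, Fdps, Fdft1, Sqle and Insig1) were higher in BaPs and Srebf2 was lower. The background was 29.8% of tested genes called higher and 24.6% lower. Insig1 differed most, at 12.8-fold (log2 fold change 3.67, SE 0.34), followed by Fdps at 9.02-fold (3.17, SE 0.33) and Idi1 at 8.55-fold (3.10, SE 0.32). Hmgcs1 was 2.53-fold and Fdft1 2.45-fold higher. Srebf2 was lower by a log2 fold change of -0.45 (SE 0.10, adjusted p = 0.0017), a call lost with library size alone as the scaling (-0.16, adjusted p = 0.258). Without BaP replicate 3 the counts were 6 higher and 1 lower, with log2 fold changes of 3.63 for Insig1, 3.49 for Fdps, 3.2 for Idi1, 2.54 for Sqle, 1.37 for Hmgcs1, 1.30 for Fdft1 and -0.44 for Srebf2. This comparison shares the BaP and spleen libraries with those above, so it is no separate evidence.

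Between spleen and BM mature basophils 0 of the 8 genes were called in edgeR's quasi-likelihood test, beside 3.16% of all tested genes higher in the spleen and 4.67% lower. Before adjustment, p in that test was 0.0275 for Hmgcs1 and 0.0049 for Idi1, both lower in the spleen. How many of all tested genes fell under 0.05 before adjustment was not counted. DESeq2, TCC's scheme rebuilt in edgeR and the fit without the count filter each called 1, which was Idi1, and limma-voom called 0. B cell markers were higher in the spleen libraries, at 180 to 323 summed CPM against 34.2 to 49.9 in BM mature basophils, and their part in these values was not tested.

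The other enzymes of the pathway were read from a list of 22, of which 6 are among the 8 genes. Erg28 in this list is a scaffold protein and not itself an enzyme, and is counted with the enzymes in the text and figure. From pre-basophils to BM mature basophils 15 of the 22 were higher in pre-basophils and 0 were lower, beside 16.3% and 11% of all tested genes, with a median log2 fold change of 0.96. Among the 16 enzymes that are not among the 8 genes, 10 were higher and 0 lower. The steps from acetyl-CoA to squalene epoxide gave 9 of 10 higher, and the steps from lanosterol to cholesterol 6 of 12. The remaining enzyme of the early steps, Acat2, named after its values were seen, had a log2 fold change of 1.02 (adjusted p = 0.174). Leaving out each of the 6 libraries in turn gave 11 to 14 of the 22.

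Mvk, the mevalonate kinase, had 26, 26 and 32 reads in pre-basophils against 3, 2 and 5 in BM mature basophils (log2 fold change 2.91, SE 0.36, adjusted p = 5.73e-05). Mvd, the decarboxylase that makes isopentenyl diphosphate, was at the edge of the call (1.74, SE 0.62, adjusted p = 0.04997), which was lost without any 1 of the 6 libraries. Of the later steps, Nsdhl, which removes a methyl group from the sterol ring, was higher by 2.15 (SE 0.37, adjusted p = 0.000735). It had 22, 22 and 53 reads in pre-basophils against 3, 7 and 9 in BM mature basophils. Hsd17b7, a reductase of the same complex, had 12, 7 and 11 reads in pre-basophils against 1, 0 and 2 in BM mature basophils.

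Among the 22 enzymes, 1 was called between BaPs and pre-basophils, where it was lower in BaPs. That share is near the 4.29% of all tested genes lower in BaPs, and 2.8% were higher. The called enzyme was Lbr, a sterol reductase that is also a structural protein of the nuclear envelope, at 227 ± 21.9 CPM in BaPs against 333 ± 3.54 in pre-basophils (log2 fold change -0.56, SE 0.11, adjusted p = 0.0093). Without BaP replicate 3 it was -0.47 (adjusted p = 0.0066). Lbr was at 298 ± 22.6 CPM in BM and 332 ± 27.4 CPM in spleen mature basophils, and was the enzyme called lower in BaPs than in spleen. In that comparison 16 others were higher, beside 29.8% of all tested genes higher and 24.6% lower. Between spleen and BM mature basophils 0 of the 22 were called in edgeR's test, beside 3.16% of all tested genes higher in the spleen and 4.67% lower. At the level of separate libraries, 14 of the 22 were higher in all 6 BaP and pre-basophil libraries than in all 6 mature libraries, beside 16.7% of all tested genes, and 0 were lower in all 6, beside 11.6%.

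**Figure D3:**
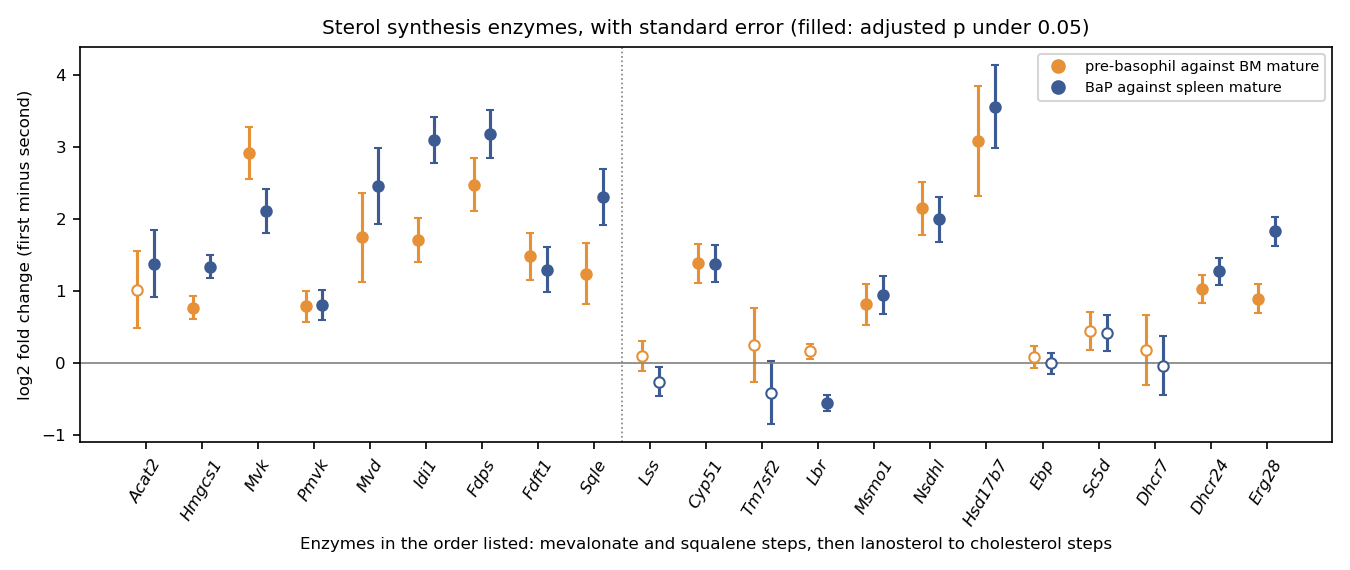
Log2 fold change (y axis) of sterol synthesis enzymes in pathway list order (x axis), with bars of 1 SE and filled symbols for an adjusted p under 0.05, for pre-basophils against BM mature basophils and BaPs against spleen mature basophils. The early steps, left of the dotted line, are filled in both comparisons except Acat2 in the first-named, and among the later steps Lss, Tm7sf2, Ebp, Sc5d and Dhcr7 are open in both.

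Of the machinery that controls SREBP, 2 of 10 genes were called higher and 1 lower in pre-basophils than in BM mature basophils, shares near those of all tested genes (16.3% and 11%). The higher ones were Insig1 and Srebf1, which encodes SREBP-1 of fatty acid and sterol synthesis (log2 fold change 0.90, SE 0.19, adjusted p = 0.0030), and the lower one was Srebf2. Insig2, named after its values were seen, was at 5.64 ± 1.43 CPM in pre-basophils against 5.73 ± 0.44 in BM mature basophils (log2 fold change -0.02, SE 0.25, adjusted p = 0.986). Scap was at 11.99 ± 5.27 CPM in BaPs and 31.8 ± 4.80 in spleen mature basophils (log2 fold change -1.35, SE 0.25, adjusted p = 0.000414). Its BaP replicates were at 9.75, 8.21 and 18.01 CPM, and without BaP replicate 3 the log2 fold change was -1.81 (adjusted p = 7.67e-07).

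Genes of cholesterol uptake and transport gave 4 of 8 tested higher in pre-basophils than in BM mature basophils and 1 lower, beside the same 16.3% and 11%. Tmem97, the sigma-2 receptor, was higher by 1.42 (SE 0.35, adjusted p = 0.0085). Npc1, which moves cholesterol out of lysosomes, was lower by a log2 fold change of -0.88 (SE 0.18, adjusted p = 0.0029). Its partner Npc2 was lower in BaPs than in pre-basophils (-0.43, SE 0.12, adjusted p = 0.0429), a call lost without BaP replicate 3 or any pre-basophil library (adjusted p from 0.0545 to 0.149), and under 4 of the 10 other alternatives (0.0594 to 0.128). Mylip, a ubiquitin ligase, was lower in spleen than in BM mature basophils (-0.88, SE 0.22, adjusted p = 0.0283), a call that was kept without BM mature replicate 2 and lost without any 1 of the other 5 libraries (adjusted p from 0.0505 to 0.123).

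Genes of efflux and esterification gave 2 of 6 tested lower in pre-basophils than in BM mature basophils and 1 higher, beside 11% and 16.3% of all tested genes. Soat1, which stores cholesterol as esters, was lower by a log2 fold change of -1.01 (SE 0.24, adjusted p = 0.0068), and Abcg1, an exporter of cholesterol, by -0.90 (SE 0.26, adjusted p = 0.0189). The Abcg1 call did not hold when replicate 1 or 3 of the pre-basophils, or replicate 1 or 2 of the BM mature basophils, was dropped (adjusted p from 0.0573 to 0.0734), and with library size alone (0.105). Apoe, the apolipoprotein that carries exported lipid, was the exception, at 395 ± 9.98 CPM in pre-basophils against 190 ± 12.5 in BM mature basophils (log2 fold change 1.06, SE 0.22, adjusted p = 0.0033).

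Of 11 genes of the non-sterol branches, 3 were higher in pre-basophils than in BM mature basophils and 0 lower, beside 16.3% and 11% of all tested genes. Dhdds, a subunit of the enzyme that makes the dolichol chain, was higher by 1.40 (SE 0.22, adjusted p = 0.000417) and Pdss1, of the ubiquinone side chain, by 1.07 (SE 0.34, adjusted p = 0.0307). The Pdss1 call was lost when BM mature replicate 3 or any pre-basophil library was left out (adjusted p from 0.0511 to 0.142), without the count filter (0.0505) and in DESeq2 (0.0566). Fatty acid synthesis was mixed, with 4 of 9 tested higher and 1 lower in pre-basophils in that comparison. Scd2, a desaturase, was at 55.2 ± 8.31, 23.1 ± 3.8, 8.86 ± 2.47 and 7.13 ± 1.38 CPM in BaPs, pre-basophils, BM and spleen mature basophils. Like Insig1 it was called at both bone marrow steps (log2 fold changes 1.25, SE 0.19, adjusted p = 0.0021, and 1.39, SE 0.22, adjusted p = 0.000444), and without BaP replicate 3 the BaP step was 1.28 (adjusted p = 0.00041). Fasn, the fatty acid synthase, was higher in pre-basophils than in BM mature basophils by 1.08 (SE 0.30, adjusted p = 0.0160). This call did not hold when replicate 3 of the pre-basophils, or replicate 2 or 3 of the BM mature basophils, was dropped (adjusted p from 0.0522 to 0.0671). Fads1, a desaturase of polyunsaturated fatty acids, was lower by a log2 fold change of -0.77 (SE 0.20, adjusted p = 0.0099). Scd1, the paralog of Scd2, was the gene of this list that differed most in the spleen, with 75, 34 and 50 reads there against 3, 0 and 7 in BM mature basophils (log2 fold change 3.32, SE 0.73, adjusted p = 0.0175). That call was lost without BM mature replicate 1 or 2 or spleen replicate 1 or 3 (adjusted p from 0.0530 to 0.0712).

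Across the 12 libraries, the 6 genes other than Lss and Srebf2 had pairwise Pearson correlations of log2 CPM from 0.61 to 0.96, with a median of 0.85. With the mean of all 8 genes Lss had an r of -0.02 and Srebf2 an r of -0.89. The 12 libraries form 4 groups, so these values mainly restate the group differences, and they are given as a description. Among 8410 other genes with a mean of at least 10 CPM, the pattern most like that mean was that of Bard1, the partner of BRCA1 (r = 0.984), then Mydgf, a secreted growth factor (0.984), Angpt1, angiopoietin-1 (0.982), Fgf3, a fibroblast growth factor (0.981), and Prkcsh, a subunit of glucosidase II (0.981). Bard1 was at 19.0, 15.03, 4.77 and 3.53 CPM in BaPs, pre-basophils, BM and spleen mature basophils.

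**Figure D4:**
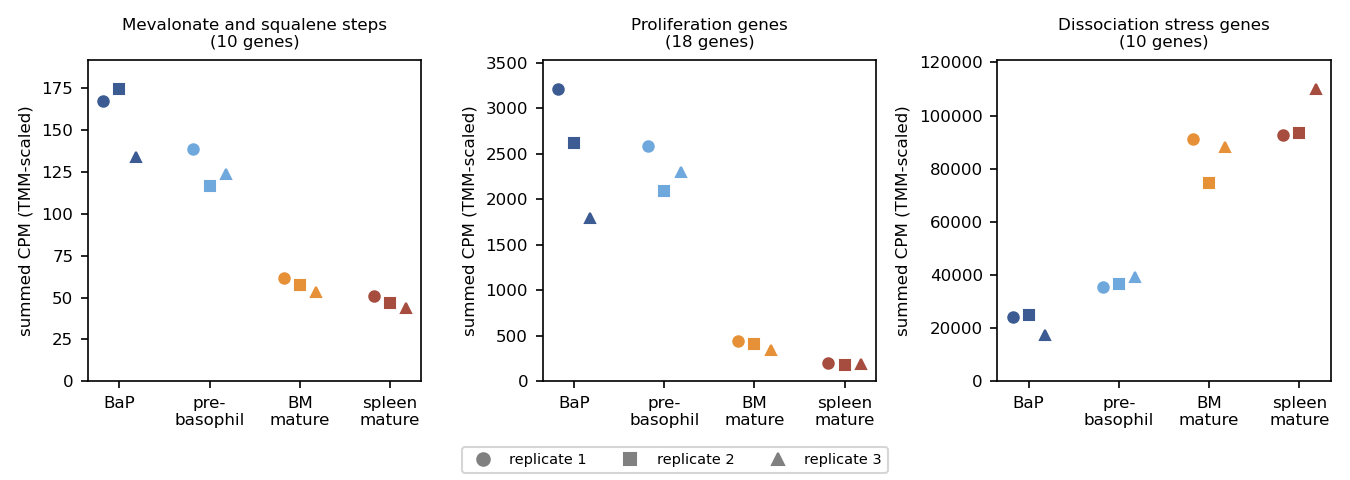
Summed CPM (y axes, from 0) in every library of the 4 groups (x axis) for the 10 enzymes from acetyl-CoA to squalene epoxide, for 18 proliferation genes and for 10 genes induced by cell dissociation. The enzymes sum to 117 to 174 in BaP and pre-basophil libraries and to 43.7 to 61.4 in mature libraries, proliferation genes fall in the same order of groups, and dissociation genes rise.

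Other measures moved with the same step. Proliferation genes, led by Mki67, summed to 1789 to 3208 CPM in BaPs, 2089 to 2587 in pre-basophils, 341 to 445 in BM mature basophils and 182 to 207 in the spleen. Genes induced by cell dissociation, led by Fosb, summed to 17418 to 24976, 35539 to 39417, 74710 to 91141 and 92573 to 109955 CPM in the same order. The neutrophil markers, led by S100a9, summed to 163 to 1858 CPM in BaPs and pre-basophils and to 36.6 to 68.7 in mature basophils. Primary granule genes of progenitors, led by Ctsg, summed to 1368 to 4316 CPM in BaPs, 1637 to 2112 in pre-basophils, 98.5 to 201 in BM mature basophils and 47.9 to 60.2 in the spleen. The basophil markers summed to 60542 to 69272 CPM in pre-basophils, 10635 to 13294 in BM mature basophils and 5311 to 5981 in the spleen. Erythroid markers, led by Hbb-bs, ran from 40.6 to 54.5 CPM in pre-basophils, 184 to 202 in BM mature basophils and 51.4 to 260 in the spleen. The part of each of these measures in the cholesterol genes was not tested. In bulk samples, fewer cells of a type with these transcripts and less of the transcript per cell cannot be told apart.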

How the data were processed

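The deposited values are raw read counts, gene by gene, of 12 bulk RNA-seq libraries, which the authors made from poly(A) RNA captured on beads, amplified by the TAS-Seq protocol and sequenced after enzymatic fragmentation. The authors trimmed reads with Cutadapt 3.4 and mapped them with Bowtie2 2.4.2 to reference RNA of GRCm38, while the submitters' processing notes name GRCm39. Genes are matched by symbol here, and whether the build used for mapping moved a count was not tested. Strand use and the handling of reads that match several genes are not given in the sources used here, so values of overlapping genes are uncertain. Besides the overlaps named above, Hmgcs1 overlaps Gm48342 and Idi1 overlaps Gm48574 on the opposite strand, and Srebf2 overlaps Gm49502 on the same strand. Molecular identifiers are not mentioned, and intervals cover counting error only.

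Groups came from the sample titles. Genes were filtered with filterByExpr, scaled by TMM and fitted in 1 quasi-likelihood model over the 12 libraries in edgeR 4.0.16 (R 4.3.3), with the adjusted p over 15083 genes. CPM uses TMM-scaled library totals, log2 CPM a prior count of 2, and the SE is the log2 fold change divided by the square root of the F statistic. The fit was tested on simulated data. Alternatives were other scalings and filters, DESeq2 1.42.0, limma-voom (limma 3.58.1), TCC's scheme rebuilt in edgeR, the compared groups alone, a replicate block and each library left out.

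The labels number the replicates 1 to 3 in each group. Same-numbered bone marrow libraries deviated from their group means together in all 9 pairs (r from 0.125 to 0.262), so the numbers were taken to pair them, a pairing that comes from the data. The main fit did not use this pairing, which enters the replicate block alone. Replicate 3 also had the most counts among BaPs (8006769), pre-basophils (6251090) and BM mature basophils (6329357). Neutrophil markers rose with the replicate number in BaPs (163, 690 and 1845 summed CPM) and pre-basophils (368, 834 and 1858). In BM mature basophils they did not (68.7, 36.6 and 67.8). The part of depth and of these markers in the correlations was not tested. In the 9 pairs with a spleen library r was 0.0004 to 0.0899. No 2 replicates agreed within sampling noise.

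The members and all lists were chosen with earlier results of these data known. Genes named are the 8 members, the called genes of each pathway list with the 2 largest and 2 smallest log2 differences of pre-basophils over BM mature basophils and the largest in each other comparison, and the 5 genes most like the mean of the members. Coordinates are those of GENCODE M21 on GRCm38, 1-based. Results of some further genes that the rule named are not reported here. Me1, Tpsab1 and Mrgprb2 were not analysed here, and 7 listed genes did not pass the filter.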

Additional observations from a re-analysis of the deposited data

How the results depend on the processing

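Of the 8 genes, the counts called were 6 to 7 from pre-basophils to BM mature basophils and from BaPs to spleen under the 10 alternatives to the chosen settings, and 5 to 7 without any 1 library. The calls of Hmgcs1, Idi1, Fdps, Fdft1 and Insig1 in these comparisons held throughout. Between BaPs and pre-basophils the count of the 8 genes rose from 1 to 2 with library size alone, without the count filter and with the replicate block, and was 1 to 2 without any 1 library. There the sterol enzymes called rose from 1 to 3 with library size alone and to 2 without the filter and with the replicate block, with 1 to 3 without any 1 library. All genes called in it numbered 1608 with library size alone, 2091 without the filter, 375 with the compared groups alone and 382 to 1830 without any 1 library, against 1069. Between spleen and BM mature basophils the 8 genes gave 1 call, and the sterol enzymes 1, without the filter, with DESeq2 and with TCC's scheme. The replicate block gave 1 sterol enzyme there, though the numbers do not pair the spleen libraries, and 0 to 1 of either list was called without any 1 library. All genes called numbered 1796 without the filter, 2340 with the compared groups alone and 241 to 757 without any 1 library, against 1181. The replicate block changed no other count by over 1.5 times. The causes were not tested.

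With library size alone the sign turned for Srebf2 in BaPs against BM mature basophils, from a called -0.32 (adjusted p = 0.0197) to 0.10 (adjusted p = 0.495). The other signs that turned were of differences that were not called. With library size alone Fdft1 stood at 0.12 and Srebf2 at 0.18 in BaPs against pre-basophils, Lss at 0.13 in BaPs against BM mature basophils, Lss at 0.0311 in BaPs against spleen and at 0.10 in spleen against BM mature basophils. Lss in the last comparison was also at 0.0075 with a mean of at least 5 CPM and at 0.0028 in limma-voom. Leaving out 1 library gave, in spleen against BM mature basophils, -0.43 to 0.0624 for Sqle, -0.21 to 0.29 for Fdft1, -0.14 to 0.16 for Lss and -0.37 to 0.33 for Insig1, in BaPs against pre-basophils -0.34 to 0.23 for Fdft1 and -0.066 to 0.0251 for Srebf2, and -0.0257 to 0.28 for Lss in pre-basophils against BM mature basophils.

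Over all tested genes, library size alone took the median log2 fold change to 0.22, 0.22, 0.13 and 0.33 in BaPs against pre-basophils, pre-basophils against BM mature, spleen against BM mature and BaPs against spleen. Calls in the higher direction became 79.2%, 82.5%, 60.3% and 73.5% of all calls, against 39.5%, 59.8%, 40.4% and 54.8% with TMM. TCC's scheme, whose largest median was 0.15, gave 45.1%, 68.2%, 34.1% and 61.8%. Depth limits Insig1, Idi1, Sqle, Mvk, Mvd, Nsdhl and Hsd17b7, among others, in mature basophils, where a library held few reads.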
